A study of Mus musculus with 18 samples.

Results

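The genes of DNA replication and S phase were read in RNA-Seq of bone marrow-derived macrophages (BMDM), 38 genes of the 31053 listed, chosen by name as the machinery that copies the genome and its main G1/S regulators. The cells came from 3 wild type (Slc7a7+/+) and 3 knockout (Slc7a7-/-) mice, 12 weeks old, and were differentiated for 7 days. The knockout is made by Cre under the lysozyme M gene *Lyz2*, on in the myeloid lineage, and takes out *Slc7a7*, a subunit of a transporter of cationic amino acids and glutamine. Whether the wild type mice carry the Cre is not given in the sources used here. The mice were of C57Bl/6J background and the medium held M-CSF, given as the recombinant factor or as L-cell conditioned medium. The cells of each mouse were kept for 24 h in control medium (mock treated), with 50 µg/mL of acetylated LDL (Ac-LDL) or with 100 µg/mL of oxidized LDL (Ox-LDL), modified lipoproteins bound by the scavenger receptors of macrophages. This gave 6 groups of 3 libraries, 18 in all, in which the same 3 mice of a genotype recur in each medium. The doses of Ac-LDL and Ox-LDL differ, so a difference between them is one between these conditions.

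*Slc7a7* was at 11.1, 12.6 and 21.1 CPM (read counts scaled to a TMM-normalised library of 1000000 counts) in wild type mice 1, 2 and 3 and at 10.2, 4.33 and 5.16 CPM in knockout mice 1, 2 and 3 in control medium, and every knockout library lay below every wild type library of its medium. The libraries held from 1043492 to 1768816 counts (median 1466145), so that a count of 0 allows up to 3 counts, or 1.67 to 2.85 CPM. All 38 members passed the filter on low counts, which left 12290 genes, and a member had between 4 and 619 counts in a library, with a median of 50. The 8 macrophage markers (*Lyz2*, *Csf1r*, *Adgre1*, *Cd68* and others) were all detected in each library and summed to between 12485 and 35845 CPM. Most of this sum was *Lyz2*, and the others summed to between 3498 and 6820 CPM. The 8 markers of myeloid progenitors summed to between 3.87 and 31.3 CPM, with 1 to 7 of them at 0 in a library, and the 8 neutrophil markers to between 39.98 and 326 CPM. The erythroid and lymphoid markers, 8 of each, summed to at most 2.19 and 1.30 CPM, with at least 7 and 6 of them at 0 in each library.

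Before S phase, the MCM helicase is loaded onto origins by *Cdc6* and *Cdt1*, and it becomes active once *Cdc45* and the GINS complex join it. DNA polymerase α with primase starts each strand, polymerases δ and ε extend it while held by the PCNA clamp, and the pieces of the lagging strand are trimmed and joined. The genes of this machinery are known targets of the E2F transcription factors and are high in dividing cells, so their mRNA level in a bulk sample rises with the share of cells that cycle. BMDM grown with M-CSF divide while they differentiate and slow as they mature. In bulk RNA, fewer cells in cycle and less of these mRNAs per cycling cell cannot be told apart.

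The letters of the E2F site were looked for in the promoters of the members, since these genes are known as E2F targets. RefSeq promoters of GRCm38.p6, with 250 bases before and 50 after the start of the gene, were found for 33 of the 38 members (no entry matched *Ccne2*, *Gins1*, *Gins2*, *Mcm4* and *Pole*). One of the letter runs TTTCCCGC, TTTGGCGC, TTTGCCGC or TTTCGCGC, on either strand, stood in 11 of the 33 (33.3%), against 2.26% of all 32851 promoters and 4.0% of 11937 promoters of tested genes. They were those of *Cdc6*, *Cdt1*, *Hells*, *Mcm3*, *Mcm5*, *Mcm6*, *Mcm7*, *Pclaf*, *Pola1*, *Pold1* and *Rfc3*. The letters CCAAT, on either strand, stood in 57.6% of the member promoters, 37.4% of all promoters and 38.2% of those of tested genes, and those of the cell cycle homology region (TTTGAA, either strand), which mitotic genes carry, in 15.2%, 17.9% and 12.4%. A letter match is a description and no measure of binding. The 160 bases before the start are shown for *Pola1* and *Tk1*, the members with the smallest p below, and for *Mcm6* and *Mcm5*, which were picked after the search for their 3 and 2 matches. *Lig1*, planned with them as the next by p, is left out because its window overlaps an exon of *Zswim9*. The start is that of the RefSeq promoter, except in *Tk1*, where it is the GENCODE gene start, 78 bases upstream. Capitals mark the E2F letters. In *Mcm6* and in *Mcm5*, a pair of matches on opposite strands overlaps and forms 1 run of capitals.
Pola1 (chrX:93632156-93632315, minus strand): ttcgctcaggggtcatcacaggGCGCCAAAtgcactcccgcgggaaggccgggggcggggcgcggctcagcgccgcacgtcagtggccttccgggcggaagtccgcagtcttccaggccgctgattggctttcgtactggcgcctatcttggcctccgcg
Tk1 (chr11:117826093-117826252, minus strand): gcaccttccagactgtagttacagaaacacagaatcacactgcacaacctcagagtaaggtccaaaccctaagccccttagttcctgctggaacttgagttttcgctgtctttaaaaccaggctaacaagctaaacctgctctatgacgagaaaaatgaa
Mcm6 (chr1:128359706-128359865, minus strand): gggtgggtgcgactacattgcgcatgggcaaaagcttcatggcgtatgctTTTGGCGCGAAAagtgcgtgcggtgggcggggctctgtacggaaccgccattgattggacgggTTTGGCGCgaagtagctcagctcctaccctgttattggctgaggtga
Mcm5 (chr8:75109349-75109508, plus strand): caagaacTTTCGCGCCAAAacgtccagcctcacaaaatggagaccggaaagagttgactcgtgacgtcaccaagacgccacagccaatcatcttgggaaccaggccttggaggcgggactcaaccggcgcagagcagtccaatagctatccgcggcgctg
The *Pola1* window holds 1 match, on the other strand, and the *Tk1* window holds none of these letters.

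Compared per length, as mean CPM over the 18 libraries per kilobase of annotated exon, *Pcna*, the sliding clamp, stood highest at 159.9 CPM per kb. *Mcm6*, a helicase subunit, followed at 40.5, and the levels of *Mcm3*, *Rrm1*, *Tk1*, *Dnmt1* and *Rrm2* lay between 24.6 and 29.3 CPM per kb. The lowest members were *Cdc6* at 2.44 and the cyclin *Ccne1* at 4.23 CPM per kb. The subunits of one complex were not level, since the MCM subunits ranged from 14.7 (*Mcm2*) to 40.5 CPM per kb. Of the 38, 10 share more than 5% of their 31-base words with transcripts of other genes, among them *Mcm7* (26.8%, mainly Gm5487), *Uhrf1* (24.2%, Gm5648) and *Pcna* (23.3%, the pseudogene *Pcna-ps2*, at 0 to 10.96 CPM in these libraries), and their counts depend on how shared reads were divided. The exons of 13 members overlap a gene on the opposite strand, and the strand setting of the counting is not given in the sources used here. Without strand, the reads of such a pair cannot be told apart. *Tk1* overlaps *Afmid*, at 0 to 6.12 CPM, and *Pole* overlaps Gm15792, at 0 in every library. Higher levels were listed for *Cops6* (29.9 to 68.7 CPM) and *Ap4m1* (8.54 to 22.3 CPM) at *Mcm7*, *Zswim9* (20.4 to 48.8 CPM) at *Lig1*, *Ufd1* (22.8 to 41.7 CPM) at *Cdc45*, *Ubxn6* (28.8 to 48.96 CPM) at *Chaf1a* and *Ints8* (32.3 to 67.9 CPM) at *Ccne2*. *Gins2*, *Rfc4*, *Rfc5*, *Fen1*, *Slbp* and *E2f8* overlap such a gene too. The highest levels among all overlapping genes listed were those of *Eif4a2* (141 to 195 CPM) at *Rfc4* and *Wsb2* (55.7 to 120 CPM) at *Rfc5*. *Rfc4* itself was at 6.63 to 17.4 CPM and *Rfc5* at 7.29 to 28.99 CPM. In the blocked fit averaged over the genotypes, *Cops6*, *Ap4m1*, *Zswim9*, *Ufd1*, *Ubxn6* and *Ints8* had fitted changes of -0.17, -0.18, 0.15, 0.16, -0.08 and 0.09 (log2) with Ac-LDL, none passing. With Ox-LDL the changes of the same genes were -0.25, -0.19, 0.44, 0.20, -0.16 and 0.24, none passing. The largest, that of *Zswim9* at *Lig1*, had an SE of 0.15 and an edgeR adjusted p of 0.053.

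The control libraries of wild type mice 1 and 3 stand apart in these genes, and the results for wild type cells rest on them. The member genes summed to 2277, 1526 and 894 CPM in the control libraries of wild type mice 1, 2 and 3, a 2.55-fold range. In control medium, mouse 1 was the highest of the 3 in 36 of 38 members and mouse 3 the lowest in 36. The SD of log2 CPM between the 3 mice had a median of 0.739 over the members in this group, against 0.250 over 8557 other genes in the same range of mean CPM. In the other 5 groups the median over the members was 0.209 to 0.390, against 0.181 to 0.261 over the other genes. The 0.390 was that of knockout cells with Ac-LDL, against 0.189, where mouse 1 was the lowest in 35 of 38 members. With Ac-LDL in wild type cells, mouse 1 was the highest in 32. In the wild type control libraries, other values moved with the order of mice 1, 2 and 3. The 30 mitosis genes summed to 2523, 1672 and 1013 CPM, the progenitor markers to 16.7, 14.7 and 4.37 CPM, and the 8 macrophage markers to 24835, 30362 and 35365 CPM. Most of the macrophage sum was *Lyz2*, at 20497, 23637 and 28591 CPM. The other macrophage markers summed to 4338, 6725 and 6773 CPM, nearly level in mice 2 and 3. Their part in the result was not tested.

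With Ac-LDL the members summed to 2283, 1999 and 1690 CPM in wild type mice 1, 2 and 3, which is 1.003, 1.31 and 1.89 times the control library of the same mouse. With Ox-LDL they summed to 2008, 1823 and 1530 CPM, or 0.882, 1.19 and 1.71 times. The wild type ratios thus run against the order of the control values, with the highest ratio in the mouse whose control was lowest. The control value is the denominator of the ratio, so such an order is partly built in. In knockout mice 1, 2 and 3 the sums were 1531, 1873 and 1873 CPM in control medium, 1671, 2640 and 2521 CPM with Ac-LDL and 1881, 2201 and 2216 CPM with Ox-LDL. The ratios were 1.09, 1.41 and 1.35 for Ac-LDL and 1.23, 1.18 and 1.18 for Ox-LDL. Knockout mouse 1, with the lowest control, had the lowest ratio for Ac-LDL and the highest for Ox-LDL. The sum was above the control of the same mouse in 6 of 6 mice with Ac-LDL, though at a ratio of 1.003 in wild type mouse 1, and in 5 of 6 with Ox-LDL.

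**Figure D1:**
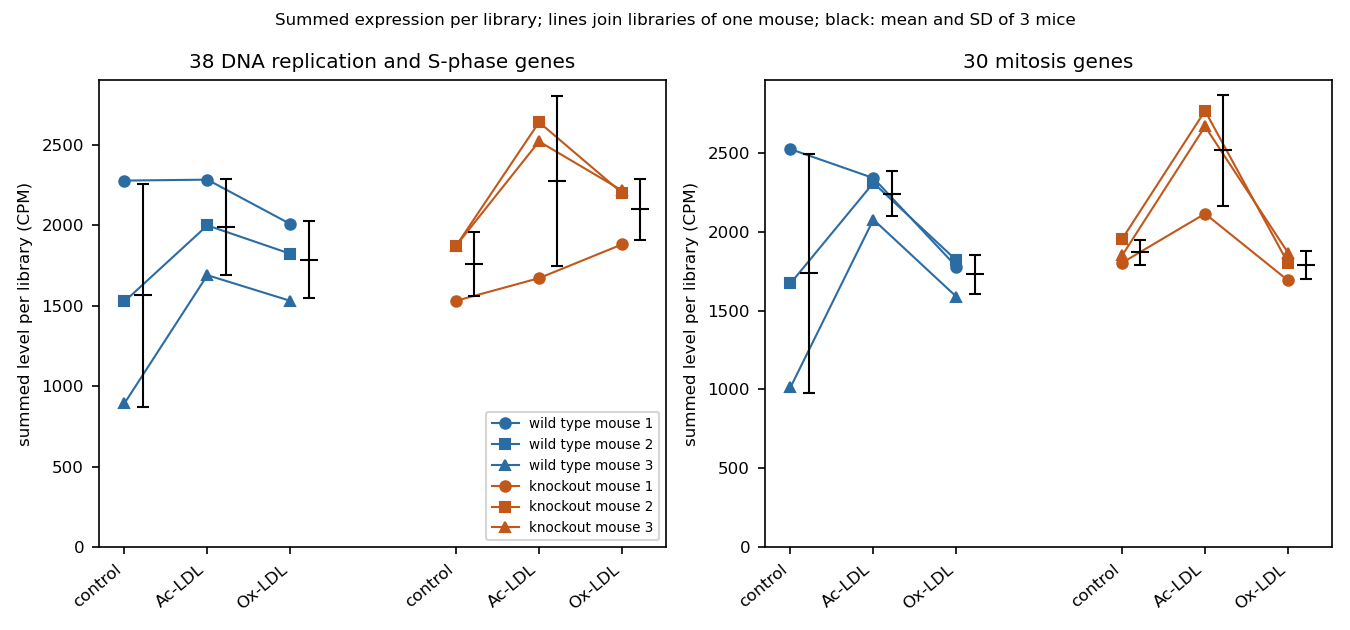
Summed level (CPM, vertical axis) of the 38 DNA replication and S-phase genes (left) and of 30 mitosis genes (right) in each library by medium, with lines joining the libraries of a mouse and black bars for the mean and SD of 3 mice. The wild type control libraries spread from 894 to 2277 CPM in the left panel, and the mitosis sums are lower with Ox-LDL than with Ac-LDL in all 6 mice.

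The comparison of each LDL with control medium asks which genes changed when the macrophages were given that LDL. *Pola1*, the catalytic subunit of DNA polymerase α, was above control in 6 of 6 mice with either LDL, as were the sliding clamp *Pcna* and the helicase subunit *Mcm2*. Their fitted log2 changes in the 4 comparisons were 0.71 to 0.90, 0.36 to 0.40 and 0.38 to 0.60 in this order. Some of the signs per mouse rest on nearly level values. In wild type mouse 1, *Pola1* was at 50.2 CPM with Ox-LDL against 49.2 CPM in control medium. In the same mouse with Ac-LDL, *Pcna* was at 239 against 234 CPM, on 252 counts in both libraries, and *Mcm2* at 63.6 against 61.3 CPM. In knockout mouse 1 with Ac-LDL, *Pcna* was at 197 against 195 CPM. Most other members were fitted above control too, and how many passed depended on whether the fit held a term for the mouse. In edgeR's quasi-likelihood fit of the 6 groups, with no term for the mouse, 0 of 38 members passed an adjusted p of 0.05 (Benjamini-Hochberg over all genes tested) in any of the 4 comparisons. The share of all genes called was 0.472% with Ac-LDL and 1.34% with Ox-LDL in wild type cells, and 0.521% and 2.32% in knockout cells. At an unadjusted p under 0.05, 5 members were higher with Ac-LDL in wild type (3.2% of all genes) and 12 in knockout cells (3.41%), 2 were higher with Ox-LDL in wild type (4.68%) and 1 in knockout cells (5.21%), and 0 were lower in each (4.13%, 4.13%, 5.35% and 7.08% of all genes in this order). The fitted log2 fold change was above 0 in 36, 36, 31 and 36 of the 38 in the same order, where it was so for 49.4%, 49.1%, 51.1% and 50.5% of all genes. The median over the members was 0.31 with Ac-LDL in wild type and 0.40 in knockout cells, and 0.13 and 0.24 with Ox-LDL, while that over all genes was within 0.01 of 0. Without wild type control library 3 the median in wild type cells was 0.02 with Ac-LDL and -0.16 with Ox-LDL, and without control library 1 it was 0.74 and 0.61. In knockout cells it lay between 0.32 and 0.59 for Ac-LDL and between 0.18 and 0.30 for Ox-LDL whichever library was left out. The treated libraries all lay above the control libraries for 1 member with Ac-LDL (*Mcm6*) and 1 with Ox-LDL (*Pola1*) in wild type cells, as for 5.5% and 5.67% of all genes. In knockout cells this was so for 8 members with Ac-LDL (*Cdc45*, *Gins1*, *Pola1*, *Pole*, *Pold1*, *Rfc4*, *Tk1* and *Lig1*, where it was so for 7.32% of all genes) and for 10 with Ox-LDL (*Mcm2*, *Mcm4*, *Gins1*, *Pola1*, *Lig1*, *Rrm2*, *Tk1*, *Chaf1a*, *Dnmt1* and *E2f8*, where it was so for 10.1%).

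The 3 media of a genotype were given to cells of the same mice, and a fit with the mouse as a block compares them within the mouse. There, 2 members passed with Ac-LDL in wild type (*Pola1* and *Pole*) and 3 in knockout cells (*Pola1*, *Tk1* and *Lig1*), and 2 passed with Ox-LDL in wild type (*Pola1* and *Pcna*) and 3 in knockout cells (*Mcm2*, *Pola1* and *Pcna*), all higher. The share of all genes called higher in this fit was 0.724%, 0.797%, 1.53% and 2.36% in the same order. Without wild type mouse 1, the blocked fit called 11 members with Ac-LDL and 6 with Ox-LDL in wild type cells, and without mouse 2 or mouse 3 it called 0 with either. In knockout cells it called 6, 2 and 1 members for Ac-LDL and 2, 2 and 1 for Ox-LDL without mouse 1, 2 or 3.

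**Figure D2:**
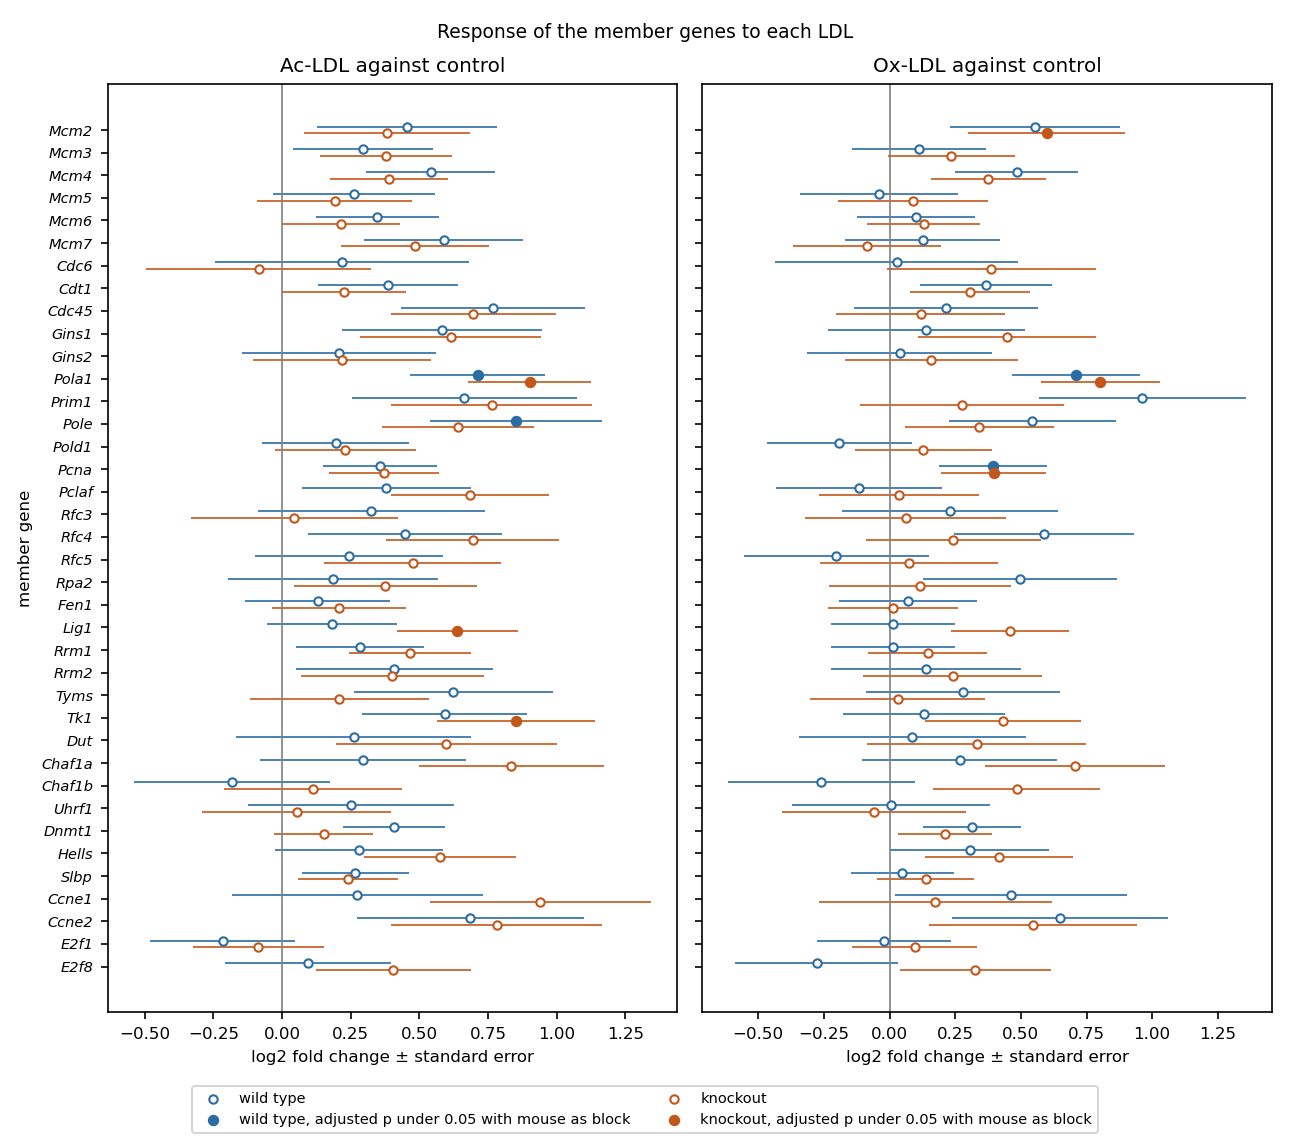
Log2 fold change ± standard error (horizontal axis) of each member with Ac-LDL (left) and Ox-LDL (right) against control, in wild type (blue) and knockout (orange) cells, from the fit of the 6 groups. Filled points had an adjusted p under 0.05 with the mouse as a block, and *Pola1* is filled in all 4 comparisons.

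Among the polymerases and primase, *Pola1* (chrX:93304767-93632155 in GRCm38, minus strand), the catalytic subunit of DNA polymerase α, had the smallest p of the 38 members in each of the 4 comparisons. *Pola1* was at 49.2, 43.97 and 20.4 CPM in control medium, 73.1, 64.3 and 48.3 CPM with Ac-LDL and 50.2, 74.1 and 58.03 CPM with Ox-LDL in wild type mice 1, 2 and 3. In knockout mice 1, 2 and 3 it was at 37.99, 41.5 and 53.5 CPM, 69.3, 91.1 and 86.4 CPM and 67.4, 91.7 and 72.3 CPM in the same order of media. It was above the control of the same mouse in 6 of 6 mice with either LDL, and the treated libraries did not overlap the control libraries in 3 of the 4 comparisons, the exception being Ac-LDL in wild type cells. For *Pola1*, the log2 fold changes against control were 0.71 (SE 0.25) with Ac-LDL and 0.71 (SE 0.24) with Ox-LDL in wild type, and 0.90 (SE 0.22) and 0.80 (SE 0.23) in knockout cells. *Pola1* had adjusted p in the same order of 0.386, 0.226, 0.0775 and 0.0646 in edgeR's quasi-likelihood fit of the 6 groups, and of 0.0323, 0.0133, 0.00084 and 0.00161 with the mouse as a block. The call is thus lost when the mouse is left out of the fit. *Pole* was at 36.2, 18.1 and 10.9 CPM in control medium, 37.96, 42.8 and 33.3 CPM with Ac-LDL and 32.3, 38.9 and 20.9 CPM with Ox-LDL in wild type mice 1, 2 and 3. *Pole* in knockout mice 1, 2 and 3 was at 22.3, 30.95 and 37.4 CPM, 48.1, 47.2 and 45.8 CPM and 26.1, 43.1 and 43.9 CPM in the same order of media. *Pole*, the catalytic subunit of the leading-strand polymerase ε, was above control in 6 of 6 mice with Ac-LDL and in 5 of 6 with Ox-LDL. For *Pole*, the log2 fold changes against control were 0.85 (SE 0.31) with Ac-LDL and 0.54 (SE 0.32) with Ox-LDL in wild type, and 0.64 (SE 0.28) and 0.34 (SE 0.28) in knockout cells. *Pole* had adjusted p in the same order of 0.454, 0.641, 0.573 and 0.709 in edgeR's quasi-likelihood fit of the 6 groups, and of 0.0397, 0.266, 0.0998 and 0.468 with the mouse as a block. *Prim1*, the primase subunit, had its largest fitted change with Ox-LDL in wild type cells (0.96, SE 0.40), with adjusted p = 0.369 by edgeR and 0.141 with the block, on 5 to 45 counts per library. *Pold1*, the catalytic subunit of polymerase δ, had fitted changes between -0.19 and 0.23.

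The sliding clamp *Pcna* was the most abundant member. *Pcna* was at 234, 184 and 131 CPM in control medium, 239, 257 and 204 CPM with Ac-LDL and 279.5, 245 and 195 CPM with Ox-LDL in wild type mice 1, 2 and 3. *Pcna* in knockout mice 1, 2 and 3 was at 195, 254 and 217 CPM, 197, 344 and 317 CPM and 247, 352 and 277 CPM in the same order of media. It was above control in 6 of 6 mice with either LDL although control and treated groups overlapped in every comparison. For *Pcna*, the log2 fold changes against control were 0.36 (SE 0.21) with Ac-LDL and 0.39 (SE 0.21) with Ox-LDL in wild type, and 0.37 (SE 0.20) and 0.40 (SE 0.20) in knockout cells. *Pcna* had adjusted p in the same order of 0.773, 0.553, 0.74 and 0.44 in edgeR's quasi-likelihood fit of the 6 groups, and of 0.0688, 0.025, 0.0636 and 0.0162 with the mouse as a block. The blocked calls are those with Ox-LDL, in both genotypes. *Pclaf*, which binds PCNA, had a fitted change of 0.68 (SE 0.29) with Ac-LDL and 0.04 (SE 0.30) with Ox-LDL in knockout cells, neither passing. The clamp loader subunits *Rfc3*, *Rfc4* and *Rfc5* were at 4.73 to 28.99 CPM and none passed either fit.

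Origin licensing is represented by *Mcm2* to *Mcm7*, which form the ring-shaped helicase, and by its loaders *Cdc6* and *Cdt1*. Of these 8 genes, the fitted change was above 0 in 8 with Ac-LDL and 7 with Ox-LDL in wild type cells, and in 7 and 7 in knockout cells, with medians between 0.12 and 0.37. *Mcm6* was at 171, 174 and 89.7 CPM in control medium, 182, 189.9 and 178 CPM with Ac-LDL and 171, 177 and 118 CPM with Ox-LDL in wild type mice 1, 2 and 3. In knockout mice 1, 2 and 3 it was at 153, 169 and 215 CPM, 144, 232 and 242 CPM and 152, 207 and 225 CPM in the same order of media. With Ac-LDL the 3 wild type libraries of *Mcm6* lay above those in control, where mouse 3 was the lowest of the 18 libraries. Its changes against control medium did not pass in either fit in any of the 4 comparisons. *Mcm2* was at 61.3, 34.2 and 14.6 CPM in control medium, 63.6, 50.98 and 34.003 CPM with Ac-LDL and 64.5, 56.2 and 37.8 CPM with Ox-LDL in wild type mice 1, 2 and 3. *Mcm2* in knockout mice 1, 2 and 3 was at 35.6, 50.8 and 39.3 CPM, 43.3, 60.5 and 58.6 CPM and 54.7, 55.4 and 78.6 CPM in the same order of media. *Mcm2* was above control in 6 of 6 mice with either LDL. For *Mcm2*, the log2 fold changes against control were 0.45 (SE 0.33) with Ac-LDL and 0.55 (SE 0.32) with Ox-LDL in wild type, and 0.38 (SE 0.30) and 0.60 (SE 0.30) in knockout cells. *Mcm2* had adjusted p in the same order of 0.832, 0.632, 0.857 and 0.431 in edgeR's quasi-likelihood fit of the 6 groups, and of 0.266, 0.0709, 0.389 and 0.0328 with the mouse as a block. *Mcm7* was above control in 6 of 6 mice with Ac-LDL and in 3 of 6 with Ox-LDL, and its largest change against control was 0.59 (SE 0.29) with Ac-LDL in wild type cells, at an adjusted p of 0.696 by edgeR and 0.0515 with the block. *Cdc6*, on 6 to 32 counts, and *Cdt1* did not pass in any comparison. The helicase activators *Cdc45*, *Gins1* and *Gins2* had fitted changes above 0 in all 4 comparisons. *Gins2* was at 25.995, 15.4 and 10.2 CPM in control medium, 27.5, 14.04 and 17.7 CPM with Ac-LDL and 18.8, 11.7 and 21.5 CPM with Ox-LDL in wild type mice 1, 2 and 3. *Gins2* in knockout mice 1, 2 and 3 was at 12.1, 19.8 and 22.6 CPM, 17.3, 28.9 and 16.2 CPM and 16.8, 21.9 and 21.4 CPM in the same order of media. The *Gins2* groups overlapped in every comparison and none passed.

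**Figure D3:**
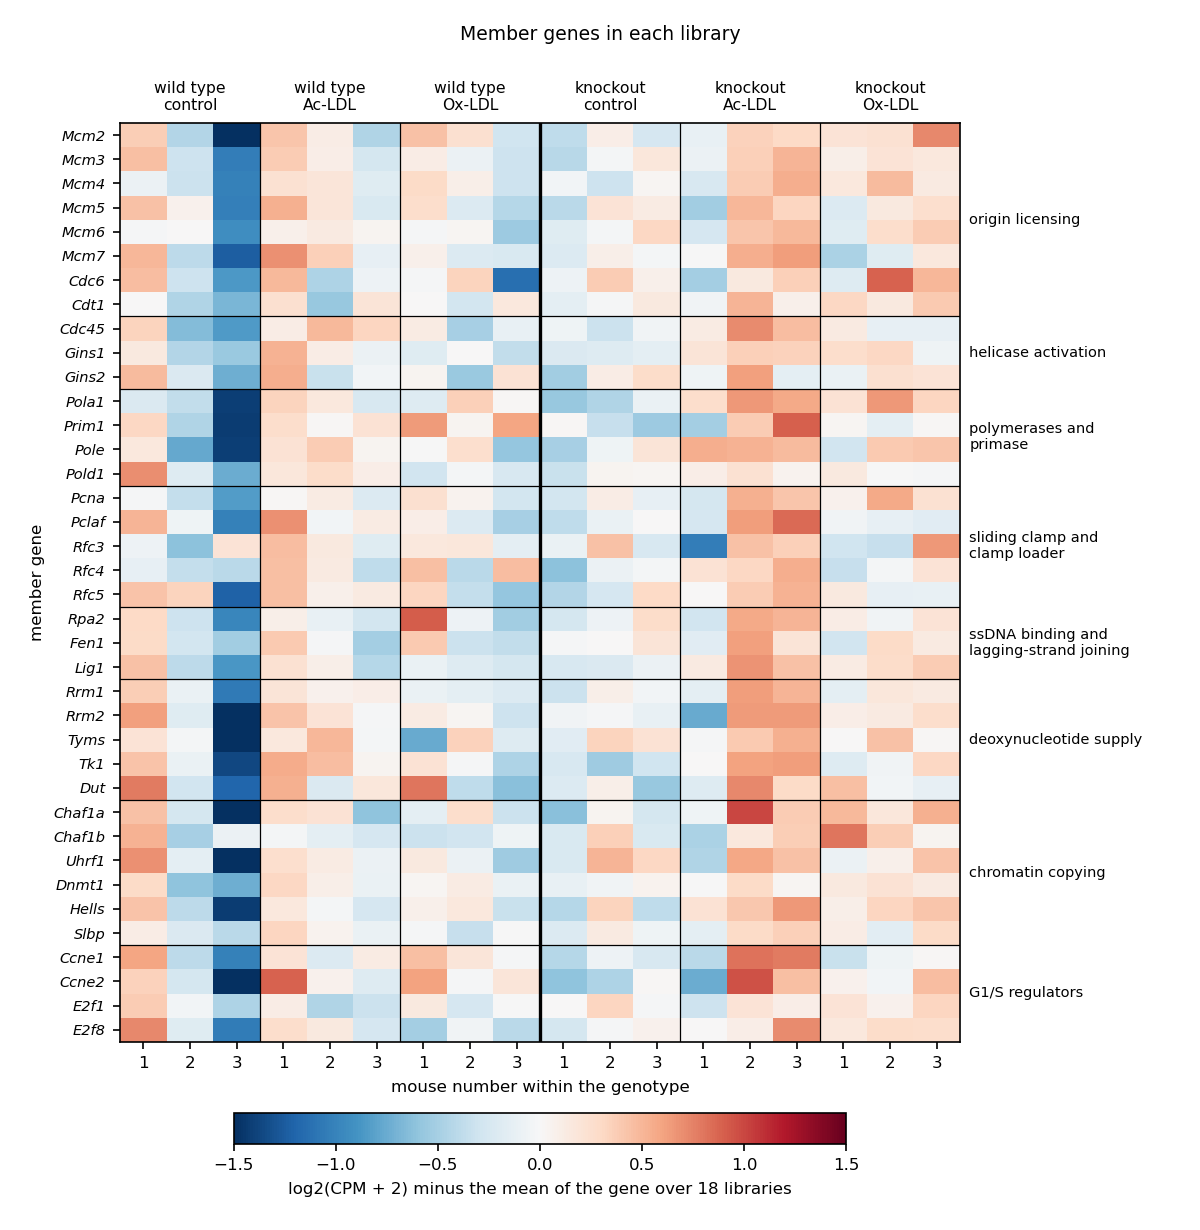
Level of the 38 members (rows, ordered by role) in the 18 libraries (columns, by group and mouse), as log2(CPM + 2) minus the mean of the gene over all libraries. The control library of wild type mouse 3 is low in nearly every row, and the Ac-LDL libraries of knockout mice 2 and 3 are high in most.

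In the deoxynucleotide supply, *Rrm1* and *Rrm2* are the subunits of ribonucleotide reductase, and *Tyms*, *Tk1* and *Dut* supply or guard the thymidine pool. *Tk1* was at 50.1, 34.2 and 13.1 CPM in control medium, 55.04, 51.7 and 38.1 CPM with Ac-LDL and 43.01, 36.4 and 26.1 CPM with Ox-LDL in wild type mice 1, 2 and 3. In knockout mice 1, 2 and 3 it was at 30.8, 24.8 and 29.7 CPM, 37.04, 57.2 and 57.98 CPM and 31.99, 35.6 and 46.2 CPM in the same order of media. In knockout cells every *Tk1* library with either LDL lay above every control library, and *Tk1* was above control in 6 of 6 mice with Ac-LDL and in 5 of 6 with Ox-LDL. For *Tk1*, the log2 fold changes against control were 0.59 (SE 0.30) with Ac-LDL and 0.13 (SE 0.31) with Ox-LDL in wild type, and 0.85 (SE 0.29) and 0.43 (SE 0.30) in knockout cells. *Tk1* had adjusted p in the same order of 0.714, 0.951, 0.302 and 0.626 in edgeR's quasi-likelihood fit of the 6 groups, and of 0.117, 0.811, 0.0105 and 0.294 with the mouse as a block. *Rrm1* was at 145, 104 and 52.5 CPM in control medium, 127, 117 and 119 CPM with Ac-LDL and 104, 101 and 96.5 CPM with Ox-LDL in wild type mice 1, 2 and 3. *Rrm1* in knockout mice 1, 2 and 3 was at 88.6, 119 and 108 CPM, 100.1, 173 and 159 CPM and 100.2, 125 and 123 CPM in the same order of media. *Rrm1* overlapped control in every comparison and did not pass. With Ac-LDL, the knockout change of *Rrm1* was 0.47 (SE 0.22; edgeR adjusted p = 0.656, and 0.0992 with the block). *Lig1* seals the nicks of the lagging strand after *Fen1* has removed the flaps. *Lig1* was at 93.8, 51.6 and 36.4 CPM in control medium, 80.7, 73.1 and 50.3 CPM with Ac-LDL and 63.6, 59.9 and 56.7 CPM with Ox-LDL in wild type mice 1, 2 and 3. *Lig1* in knockout mice 1, 2 and 3 was at 57.9, 58.8 and 64.5 CPM, 75.6, 111 and 93.9 CPM and 74.9, 83.5 and 89.6 CPM in the same order of media. With either LDL every knockout library of *Lig1* lay above every knockout control library, while the wild type groups overlapped. For *Lig1*, the log2 fold changes against control were 0.18 (SE 0.24) with Ac-LDL and 0.01 (SE 0.24) with Ox-LDL in wild type, and 0.64 (SE 0.22) and 0.46 (SE 0.22) in knockout cells. *Lig1* had adjusted p in the same order of 0.941, 0.992, 0.326 and 0.41 in edgeR's quasi-likelihood fit of the 6 groups, and of 0.72, 0.927, 0.0127 and 0.0719 with the mouse as a block. *Fen1* and *Rpa2*, a subunit of the single-strand binding protein, did not pass in any comparison.

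Chromatin copying is represented by the histone chaperone subunits *Chaf1a* and *Chaf1b*, the maintenance methylation genes *Dnmt1* and *Uhrf1*, the remodeller *Hells* and the histone mRNA binding protein *Slbp*. *Dnmt1* was at 189, 101 and 92.6 CPM in control medium, 194, 165 and 145 CPM with Ac-LDL and 158, 169 and 145 CPM with Ox-LDL in wild type mice 1, 2 and 3. In knockout mice 1, 2 and 3 it was at 144, 149 and 161 CPM, 154, 189.9 and 158 CPM and 173, 181 and 171 CPM in the same order of media. The *Dnmt1* libraries with Ox-LDL lay above control in knockout cells, and the other 3 comparisons overlapped. For *Dnmt1*, the log2 fold changes against control were 0.41 (SE 0.19) with Ac-LDL and 0.31 (SE 0.19) with Ox-LDL in wild type, and 0.15 (SE 0.18) and 0.21 (SE 0.18) in knockout cells. *Dnmt1* had adjusted p in the same order of 0.641, 0.644, 0.912 and 0.72 in edgeR's quasi-likelihood fit of the 6 groups, and of 0.0783, 0.135, 0.702 and 0.406 with the mouse as a block. *Chaf1a* had fitted changes of 0.83 (SE 0.34) with Ac-LDL and 0.71 (SE 0.34) with Ox-LDL in knockout cells, with edgeR adjusted p = 0.507 and 0.409, and 0.0534 and 0.0666 with the block. Among the G1/S regulators, *Ccne1* and *Ccne2* encode the E cyclins, *E2f1* is an activator and *E2f8* a repressor of the E2F targets. *E2f8* was at 59.4, 30.7 and 16.04 CPM in control medium, 42.7, 39.2 and 29.2 CPM with Ac-LDL and 24.2, 33.9 and 26.1 CPM with Ox-LDL in wild type mice 1, 2 and 3. *E2f8* in knockout mice 1, 2 and 3 was at 28.9, 34.7 and 36.7 CPM, 35.5, 37.8 and 58.6 CPM and 39.6, 43.1 and 42.8 CPM in the same order of media. *E2f8* and *E2f1* did not pass in any comparison, and *E2f1* had fitted changes between -0.22 and 0.10. *Ccne2* was above control in 6 of 6 mice with Ox-LDL and in 5 of 6 with Ac-LDL, and had fitted changes from 0.55 to 0.78 with standard errors of 0.385 to 0.414, and it did not pass within a genotype in either fit.

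Averaging the response over the genotypes, a contrast added after the data were seen, sets all 6 mice against their own controls. Without a block, *Pola1* alone passed with either LDL (edgeR adjusted p = 0.00775 with Ac-LDL and 0.00582 with Ox-LDL), where 0.561% and 1.81% of all genes were called higher. With the mouse as a block, 16 of the 38 members were called higher with Ac-LDL, against 2.35% of all genes, and 6 with Ox-LDL, against 4.39%, and 0 were called lower with either. The 16 were from all 8 roles, among them 5 of the 8 licensing genes (*Mcm2*, *Mcm3*, *Mcm4*, *Mcm6* and *Mcm7*), *Pola1* and *Pole*, *Pcna* and *Pclaf*, *Tk1* and *Rrm1*, *Chaf1a* and *Dnmt1*, with *Cdc45*, *Lig1* and *Ccne2*. The 6 with Ox-LDL were *Mcm2*, *Mcm4*, *Pola1*, *Pcna*, *Dnmt1* and *Ccne2*, all of which are among the 16. The blocked changes with Ac-LDL were 0.81 (SE 0.13) for *Pola1*, 0.77 (SE 0.16) for *Pole*, 0.74 (SE 0.14) for *Tk1*, 0.55 (SE 0.12) for *Mcm7* and 0.37 (SE 0.08) for *Pcna*. With Ox-LDL they were 0.77 (SE 0.13) for *Pola1*, 0.60 (SE 0.13) for *Mcm2* and 0.40 (SE 0.08) for *Pcna*. The edgeR adjusted p with the block was 2.61e-05 for *Pola1* and 0.00152 for *Pcna* for Ac-LDL, and 2.67e-05 and 0.000275 for Ox-LDL. Both comparisons use the same control libraries.

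The counts moved with the mice entered. Without wild type mouse 3 or without knockout mouse 2, 6 members were called with Ac-LDL, without knockout mouse 3, 8, without wild type mouse 2, 10, and without wild type mouse 1, 23. With Ox-LDL, 3 were called without wild type mouse 3 and 12 without wild type mouse 1. *Pola1*, *Pole*, *Tk1*, *Pcna* and *Mcm7* were called with Ac-LDL, and *Mcm2*, *Pola1* and *Pcna* with Ox-LDL, whichever single mouse was left out. By the sign of the change alone, 10 members were above control in 6 of 6 mice with Ac-LDL (*Mcm2*, *Mcm7*, *Gins1*, *Pola1*, *Pole*, *Pcna*, *Pclaf*, *Rfc4*, *Tk1* and *Slbp*), where 4.74% of all genes were. With Ox-LDL, 6 were (*Mcm2*, *Mcm4*, *Pola1*, *Prim1*, *Pcna* and *Ccne2*), where 5.55% of all genes were. *Mcm2*, *Pola1* and *Pcna* were above control in 6 of 6 mice with both, as were 1.6% of all genes.

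**Figure D4:**
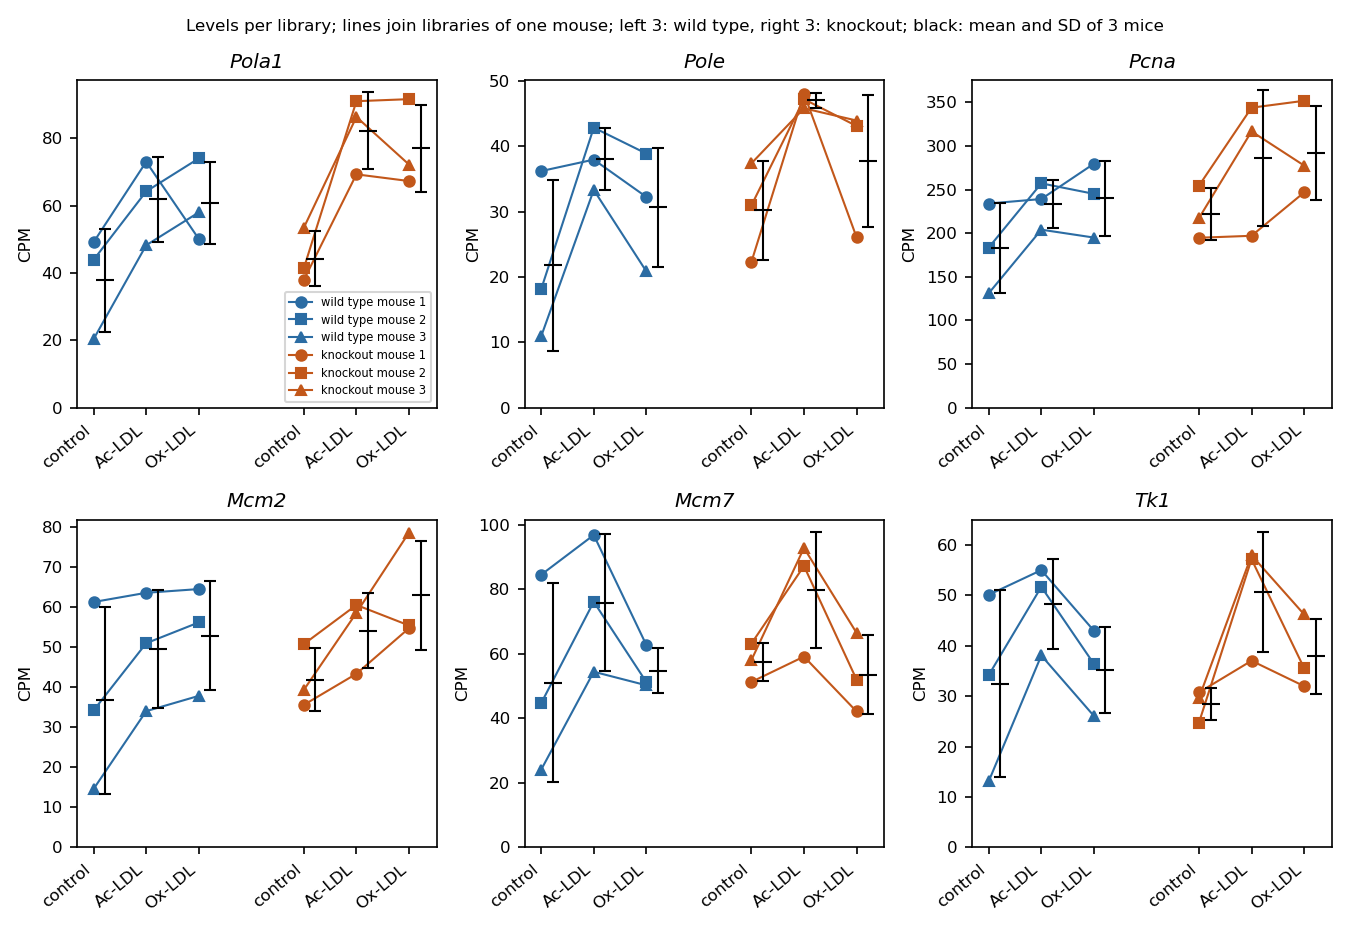
Level (CPM, vertical axis) of 6 members by medium and genotype, with lines joining the libraries of a mouse and black bars for the mean and SD of 3 mice. In the blocked fit averaged over the genotypes, *Pola1* and *Pcna* were called with both LDLs whichever single mouse was left out. The same held for *Pole*, *Tk1* and *Mcm7* with Ac-LDL and for *Mcm2* with Ox-LDL. *Pola1* and *Pcna* lie above the control of the same mouse with both LDLs in all 6 mice, in some by little, while *Mcm7* does so in 6 mice with Ac-LDL and in 3 with Ox-LDL.

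Ox-LDL against Ac-LDL was compared within each genotype. In edgeR's fit of the 6 groups 0 of 38 members passed in wild type and 0 in knockout cells (0.00814% and 0.0651% of all genes called), and with the mouse as a block also 0 and 0 (0.732% and 1.38%). At an unadjusted p under 0.05, 0 were lower in wild type and 2 in knockout cells (2.41% and 2.94% of all genes), and 0 were higher in either (2.73% and 2.61%). The smallest p were those of *Pclaf* (-0.65, SE 0.29) and *Mcm7* (-0.57, SE 0.27) in knockout cells, with edgeR adjusted p = 0.88 and 0.895. The median was -0.17 in wild type and -0.15 in knockout cells, with 8 of 38 fitted above 0 in both (51.4% and 50% of all genes), and without wild type Ac-LDL library 1 the wild type median was 0.00456. The knockout median was -0.04 without Ac-LDL library 2 and -0.31 without Ac-LDL library 1. The 30 mitosis genes had lower medians in this comparison, -0.35 in wild type and -0.52 in knockout cells, and 2 and 0 of the 30 were fitted above 0. Their summed level with Ox-LDL was 0.651 to 0.800 times that with Ac-LDL in the 6 mice, while that of the replication members was 0.834 to 1.13 times. With the mouse as a block, 1 mitosis gene was called lower in wild type cells (*Prc1*) and 6 in knockout cells (*Birc5*, *Top2a*, *Cenpf*, *Plk1*, *Prc1* and *Cenpe*), and 0 in the fit without it. That mitosis and replication genes differ in this was not tested.

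The other cell cycle genes were read beside the members. Of 47 further genes of the replication pathway (the remaining subunits, loaders and checkpoint genes), 0 passed in the fit of the 6 groups in any of the 4 comparisons with control, and 3, 1, 3 and 3 were called higher with the block for Ac-LDL (wild type, then knockout) and Ox-LDL (likewise), where 0.724%, 0.797%, 1.53% and 2.36% of all genes were. Their medians in that order were 0.30, 0.34, 0.07 and 0.22. *Atad2*, a chromatin factor of S phase, was called higher in all 4 blocked comparisons, with changes of 0.68, 0.65, 0.61 and 0.54. *Samhd1*, which breaks down deoxynucleotides, was called lower with Ox-LDL in both genotypes (-0.42 and -0.43), where 351 and 592 of 12290 genes were. Of the 30 mitosis genes 0 passed without the block, and 4 and 5 were called higher with Ac-LDL in wild type and knockout cells with it (0.724% and 0.797% of all genes), *Mki67* and *Cenpe* in both, while 0 were called with Ox-LDL. Averaged over the genotypes without the block, 2 of the 47 were called higher with Ac-LDL (0.561% of all genes). With Ox-LDL 4 were called higher (1.81%) and 1 lower (439 of 12290 genes). Of the 30, 3 were called higher with Ac-LDL and 0 with Ox-LDL. With the block, 6 of the 47 and 9 of the 30 were called higher with Ac-LDL (2.35% of all genes). With Ox-LDL, 7 of the 47 and 1 of the 30 were called higher (4.39%), and 1 of each list lower (854 of 12290 genes). The mitosis medians within a genotype were 0.26 in wild type and 0.40 in knockout cells for Ac-LDL, and -0.09 and -0.15 for Ox-LDL. *Mki67*, a marker of cycling cells, had fitted changes of 0.63 (SE 0.21) and 0.64 (SE 0.21) for Ac-LDL and of 0.27 (SE 0.21) and 0.29 (SE 0.21) with Ox-LDL. *Top2a*, the topoisomerase of dividing cells, had 0.28 (SE 0.19), 0.39 (SE 0.18), -0.06 (SE 0.19) and -0.12 (SE 0.19) in the same order.

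Of 28 genes of G1 entry and cell cycle inhibitors, *Btg1*, an antiproliferative gene, fell with Ox-LDL in knockout cells by 0.59 on the log2 scale (SE 0.16, edgeR adjusted p = 0.0469). In this comparison 204 of 12290 genes were called lower. *Btg1* was the one gene of these 3 lists that passed without the block in the 4 comparisons within a genotype. With the block it was called lower in all 4 comparisons. There, 176 and 209 of 12290 genes were called lower with Ac-LDL in wild type and knockout cells, and 351 and 592 with Ox-LDL. *Btg1* was at 273, 454 and 377 CPM in control medium, 229.6, 305 and 303 CPM with Ac-LDL and 220.4, 294 and 286 CPM with Ox-LDL in wild type mice 1, 2 and 3. In knockout mice 1, 2 and 3 it was at 417, 425 and 422 CPM, 300.2, 357 and 332 CPM and 274, 283 and 283 CPM in the same order of media. Each library with an LDL was below the control of the same mouse. *Myc* had fitted changes of 0.55 (SE 0.28) and 0.71 (SE 0.24) with Ac-LDL and 0.65 (SE 0.27) and 0.50 (SE 0.25) for Ox-LDL, wild type first, none passing in either fit. *Ccnd1* (cyclin D1) was called higher with Ac-LDL in knockout cells with the block (0.57) and in no other of the 4 comparisons. *Cdkn1a*, an inhibitor of cyclin-dependent kinases, had changes of -0.05 (SE 0.20), 0.35 (SE 0.19), 0.03 (SE 0.20) and 0.42 (SE 0.19), none passing. The progenitor markers, summed, were at 1.18 to 2.83 times the control of the same mouse with either LDL in wild type cells, and at 0.982 to 4.33 times in knockout cells, on at most 31.3 CPM. The neutrophil markers were at 1.02 to 1.61 times control with Ac-LDL and 1.69 to 2.53 times with Ox-LDL in wild type cells, and at 0.424 to 0.940 and 0.978 to 1.56 times in knockout cells. The macrophage markers other than *Lyz2* were at 0.709 to 0.983 times control in the 6 mice with either LDL. The dendritic and stromal markers summed to at most 12.1 and 26.0 CPM. Their part in the member changes was not tested.

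Knockout was compared with wild type in each medium. In edgeR's quasi-likelihood fit 0 of 38 members passed in control medium, with Ac-LDL or with Ox-LDL, and 0.00814%, 0.0163% and 0.00814% of all genes were called. At an unadjusted p under 0.05, 0, 1 and 2 members were higher (2.1%, 2.46% and 2.15% of all genes) and 0 were lower (1.9%, 2.43% and 2.63%). The members were fitted above 0 in 30, 36 and 32 of 38, where 50.7%, 49.6% and 47.8% of all genes were, with medians of 0.14, 0.20 and 0.23. Without wild type control library 3 the median in control medium was -0.12, and without control library 1 it was 0.52. The members with the smallest p were *Pole* in control medium (0.52, SE 0.31), *Lig1* with Ac-LDL (0.48, SE 0.22) and *Chaf1b* with Ox-LDL (0.72, SE 0.33), at edgeR adjusted p = 1, 0.99 and 0.933. With the 3 media of a mouse summed, 0 members passed (0.00789% of all genes), the median was 0.20 and 37 of 38 were fitted above 0, against 49.9% of all genes. Leaving out wild type mouse 3 brought this median to 0.0565 and leaving out wild type mouse 1 to 0.381. With Ac-LDL the median was 0.10 without knockout library 2 and 0.38 without knockout library 1, and with Ox-LDL 0.16 without wild type library 3 and 0.35 without wild type library 1. *Lyz2*, whose locus carries the Cre, was at 7526 to 15337 CPM in knockout and 15543 to 30462 CPM in wild type libraries, while the other 7 macrophage markers summed to 3498 to 6820 CPM over all libraries. Their part in the genotype difference was not tested.

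The response to an LDL was also compared between the genotypes, as the difference of the changes. 0 members passed for Ac-LDL or Ox-LDL, with or without the block, and 0% of all genes passed without it. With the block 0.0407% of all genes passed for Ac-LDL and 0% for Ox-LDL. At an unadjusted p under 0.05, 0 members were higher or lower in either, where 1.37% and 1.46% of all genes were higher and 1.29% and 1.29% lower. The median was 0.06 for Ac-LDL and 0.09 for Ox-LDL, and it was -0.30 and -0.28 without wild type control library 1 and 0.34 and 0.41 without wild type control library 3. The smallest p belonged to *Lig1* for Ac-LDL (0.46, SE 0.32, knockout minus wild type) and *Chaf1b* for Ox-LDL (0.74, SE 0.48). The calls listed above for one genotype and not for the other are therefore not shown to differ between them.

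**Figure D5:**
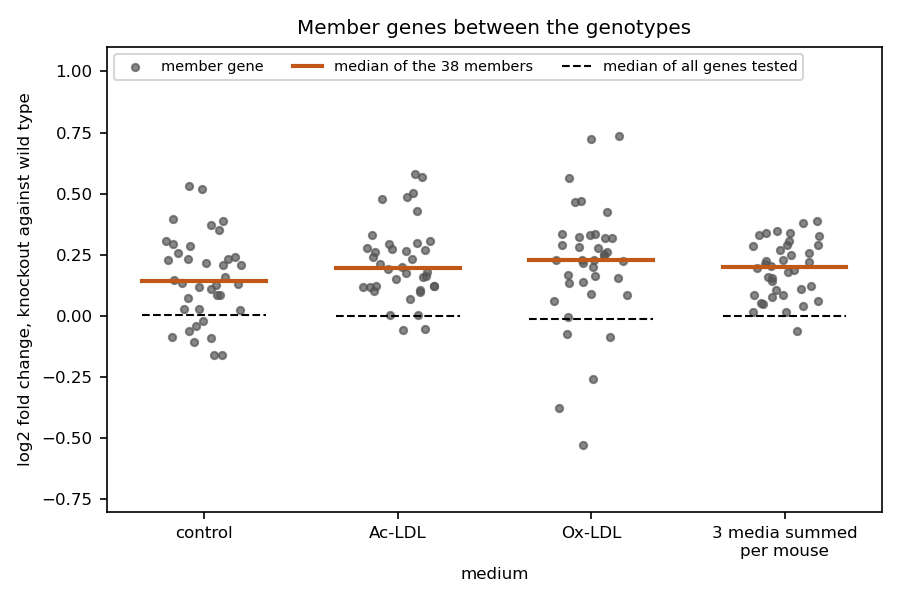
Log2 fold change of knockout against wild type (vertical axis) of each member in the 3 media and with the media of a mouse summed. Orange lines are the medians of the 38 members (0.14, 0.20, 0.23 and 0.20) and dashed lines those of all genes tested, and no member passed the test in any column.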

How the data were processed

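RNA-Seq of BMDM from 3 wild type and 3 knockout mice in 3 media was read. The authors prepared libraries with a stranded total RNA kit, sequenced them single-end, trimmed the reads, aligned them with STAR to mm10 and quantified genes on the Ensembl release 93 transcriptome, and per the labels Salmon was used as well. The deposited values are estimated counts per gene, not normalized, and versions are not given in the sources used here. They were rounded. The genes, lists and named genes were chosen with earlier results of these data known.

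filterByExpr (minimum count 2, total 10) left 12290 genes, which edgeR 4.0.16 (R 4.3.3) fitted as 6 groups with TMM scaling and the quasi-likelihood test, with Benjamini-Hochberg adjustment and a threshold of 0.05. Named members are those past the threshold or, failing that, the 3 with the smallest p, and the most abundant of each role, and for other lists, those past it and 5 fixed examples. A log2 CPM has a prior count of 2. Mouse numbers in the labels recur across the 3 media, which pairs the libraries by animal. Deviations of libraries of 1 mouse correlated at 0.0551 to 0.293 (median 0.158, 14 of 18 pairs over 0.1). Other settings were scaling by library size, DESeq2 1.42.0, other filters, only the libraries compared, the block and leaving out libraries. Contrasts averaged over genotypes and fits without a mouse were added after the data were seen. The procedure was tested on simulated data. Exon lengths and coordinates are from GENCODE vM21 (GRCm38, basic set), promoters from RefSeq. Replicate pairs differed beyond counting error (by chi-square, 2.03 to 12.7 per degree). The limit given for a count of 0 covers counting error only, while the standard errors of the edgeR fits also hold the spread between libraries.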

Additional observations from a re-analysis of the deposited data

How the results depend on the processing

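No member passed in the fit of the 6 groups in a comparison within a genotype or between genotypes, and the count that did so depended on how the mouse entered. With the replicate block 2 passed with Ac-LDL and 2 with Ox-LDL in wild type cells, and 3 and 3 in knockout cells, all higher, and the pairing changed no call for Ox-LDL against Ac-LDL or for the difference in response between genotypes. Without a filter on low counts, 1, 1, 4 and 1 members passed (Ac-LDL and Ox-LDL in wild type, then in knockout cells), *Pola1* among them each time. With only the libraries compared, 3 passed with Ac-LDL and 4 with Ox-LDL in knockout cells, and DESeq2 called 1 with Ac-LDL there. Averaged over the genotypes, 1 and 1 passed without the block (*Pola1* with either LDL) and 16 and 6 with it. Libraries were left out of the fit of the 6 groups, and mice out of the blocked fit. Both together gave 0 to 11 members with Ac-LDL and 0 to 6 with Ox-LDL in wild type cells. In knockout cells they gave 0 to 6 and 0 to 2. The highest of these counts were from the blocked fit, so the ranges also hold the change of fit. Averaged over the genotypes with the block, leaving out a mouse gave 6 to 23 with Ac-LDL (8 without knockout mouse 3 and 10 without wild type mouse 2). With Ox-LDL it gave 3 to 12 (5 without wild type mouse 2 or knockout mouse 1). The median change of Ox-LDL against Ac-LDL in wild type cells ranged from -0.290 to 0.00456 with a library left out. The mean log2 change of the summed level with Ox-LDL in knockout cells was 0.315 with library size alone, against 0.253 with TMM. For *Pola1*, adjusted p over all settings was 0.0164 to 0.916 (Ac-LDL) and 0.000315 to 0.713 (Ox-LDL) in wild type cells, and 0.000424 to 0.405 and 0.00161 to 0.319 in knockout cells, with its change above 0 in each. Over all comparisons and settings, the count of members called moved in 35 and did not in 147. A main count of 0 moved if any member passed, and other counts moved if they changed by more than 1.5 times. The main count was 0 in every comparison except those averaged over the genotypes. The median change took the other sign without wild type control library 3 for Ox-LDL in wild type cells (-0.16, and -0.03 without the 3 libraries of mouse 3) and for knockout against wild type in control medium (-0.12), and without wild type control library 1 for the difference in response between genotypes (-0.30 and -0.28), which also lay between -0.05 and 0 without any of 3 other libraries for Ac-LDL and of 2 for Ox-LDL. The depth limits members with few counts, such as *Ccne1* (4 to 28 per library) and *Gins1* (6 to 18). The cause of these shifts was not tested.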
